A study of Homo sapiens with 6 samples.

Results

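The transcripts described here encode the machinery that copies DNA. They were taken from an Illumina HumanWG-6 array by their gene symbols: MCM, ORC, GINS, RFC or RPA followed by a digit, any symbol that starts with POLA, POLD, POLE or PRIM, and CDC6, CDT1, CDC45L and PCNA. The rule took 49 of the 37879 targets of the array. No measured value entered it, but it was chosen with earlier results of these data known. A pair of genes is represented by more than 1 target (POLA and POLA1, PRIM2 and PRIM2A), so that the 49 targets stand for 47 genes. Symbols alone also brought in 5 targets that do not encode the replication machinery: MCM3AP and MCM3APAS, POLDIP2, POLDIP3 and PRIMA1. They are kept and marked as such.

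RNA was measured on 6 arrays after immunoprecipitation with an anti-FLAG antibody from HEK293T, a human embryonic kidney cell line that is easily transfected. The 3 control IPs came from cells that received the empty vector, and the 3 Stau1 IPs from cells that received plasmids coding for Stau155-FLAG, the tagged form of the double-stranded RNA-binding protein Staufen1. All cells were held in prometaphase with 50 ng/ml nocodazole, a microtubule poison, for 15 h. The tagged protein was expressed from a plasmid in cells that still made their own Staufen1, nothing in the labels states that the 3 samples of a group were separate cultures, and p-values therefore measure only the spread between these samples, which may be technical.

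In a cell cycle, the origin recognition complex marks origins, and CDC6 and CDT1 load the MCM2-7 helicase there before S phase. CDC45 and GINS then turn MCM2-7 into an active helicase, MCM10 helps to open the fork, polymerase alpha with its primase lays primers, and polymerases delta and epsilon extend them on the PCNA clamp, which RFC loads, while RPA covers single-stranded DNA. Many of these genes are transcribed at the transition from G1 to S phase under the control of E2F factors, whereas the cells studied here were arrested in mitosis. Staufen1 binds double-stranded structures in RNA and takes part in the localization, translation and decay of its bound mRNAs.

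A feature that the selection did not use is the E2F-type motif of their promoters. Windows of 300 bases, from 250 before to 50 after the start of the gene, were taken from RefSeq (GRCh38.p14) for 42 of the 49 targets, which represent 40 genes. The letters TTTCCCGC, TTTCGCGC, TTTGCCGC or TTTGGCGC were found on either strand in 18 of these 40 genes (45%). The same letters were in 3.33% of the 27305 promoters of the table. The genes with a match were CDC6, CDT1, ORC3L, PCNA, POLA1, POLA2, POLE, POLE2, POLE4, RFC3, GINS1, GINS2, GINS3, MCM2, MCM3, MCM6, MCM7 and MCM8. A match describes letters only. The stretches below are the matches nearest to the gene start in the named members for which the array values are given further on. They are printed 5′ to 3′ on the strand of the gene, with the motif or its reverse complement in capitals.
CDC6 (chr17:40287878-40287901, plus strand): cattcggaTTTGGCGCgagcgcgg
CDT1 (chr16:88803746-88803769, plus strand): gggcgcccGCGGGAAAtttggcgg
MCM2 (chr3:127598405-127598428, plus strand): gaaccactTTTCGCGCgaaacctg
ORC3L (chr6:87590115-87590138, plus strand): gagggcgcGCGGGAAAtcccgagt
PCNA (chr20:5126666-5126689, minus strand): cgtcagggGCGGGAAAaggcgtgc
POLA and POLA1 (chrX:24693773-24693796, plus strand): atcacaggGCGCCAAAcgcgcgtc
POLA2 (chr11:65261901-65261924, plus strand): gctcccggTTTCGCGCatgcgtgc
POLE2 (chr14:49688204-49688227, minus strand): cggcggtgGCGCCAAAtcgcaaat
RFC3 (chr13:33818086-33818109, plus strand): tggagctcGCGGGAAAacttgtct
Transcripts that lay higher on some Stau1 IP arrays (POLA2, CDT1) and transcripts that lay lower (PCNA, ORC3L, POLE2) are both among them.

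Before the comparison, the arrays themselves need a remark. A target counted as detected at a detection p under 0.05, as deposited by the authors, which for targets of combined probes is not a plain rank of the signal. Between 11635 and 13054 targets reached it per array, and between 42 and 44 of the 49 replication targets. Pearson correlations were computed over the 9884 targets that every array detected. For the array labelled Stau1 IP 2 they were 0.940 and 0.943 with its own group but 0.976 with control IP 3. For the array labelled control IP 2 they were 0.977 and 0.982 with its own group, 0.983 and 0.984 with Stau1 IP 1 and 3, and 0.954 with Stau1 IP 2. Stau1 IP 2 thus stood nearer to the controls, while control IP 2 stood about as near to Stau1 IP 1 and 3 as to its own group. The SD of its differences was 0.277 and 0.253 from control IP 1 and 3, and 0.270 and 0.262 from Stau1 IP 1 and 3. Over the replication targets its median absolute difference was 0.156 and 0.162 from these controls, and 0.208 and 0.201 from Stau1 IP 1 and 3. Both arrays numbered 2 are kept in their labelled groups, shown singly, and each comparison is also given without both. Stau1 IP 1 and 3 correlated at 0.996, and the spread of their differences was 1.81 times that expected from the error between beads, against at least 3.56 times for every other pair. Transcripts that HEK293T cells in mitosis should hold were detected on all 6 arrays for 9 of 10 markers listed, among them CCNB1, CDC20 and PLK1, while PAX2 was detected on 1 array. Of 7 markers of blood, liver, fibroblasts and epidermis, 5 were detected on no array, but COL1A1 was detected on 5. STAU1 itself had signals between 1857 and 3246, the lowest on Stau1 IP 2. The arrays read bulk RNA, in which fewer cells with a transcript and less of it per cell cannot be told apart, and total RNA of the same cells was not analysed here.

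The comparison asks which replication transcripts copurify with Stau1 beyond the control IP. By the labels, with 3 arrays against 3, no replication transcript passed. At the fold of 2.5 and unadjusted p under 0.05 that the methods use, 0 of 49 were enriched and 0 depleted by limma, against 0.00264% of all targets enriched. At an adjusted p under 0.05, 0 passed (smallest adjusted p = 0.117, for MCM10), as did 0 of all 37879 targets. At an unadjusted p under 0.05, 13 of the 49 stood out, against 8.7% of all targets, 3 of them higher in the Stau1 IPs (POLD1, POLDIP2 and POLDIP3) and 10 lower (MCM10, RPA3, POLA, ORC3L, POLE2, PCNA, RFC5, RFC3, ORC4L and RFC1). Over all targets 3.54% were higher and 5.16% lower by this rule, and over the targets detected on at least 3 arrays, which most replication transcripts are, 7.98% were higher and 11.7% lower. Without the 5 targets taken by symbol alone, 1 of 44 was higher and 10 were lower. The median log2 fold change of the 49 was 0.003, beside 0.001 over all targets.

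All 3 Stau1 IP arrays lay below all 3 control IP arrays for 11 of the 49 targets, against 8.09% of all targets and 13.2% of those detected on at least 3 arrays. They lay above them for 3, against 6.31% and 8.53%. An exact permutation test of 3 arrays against 3 cannot go below p = 0.1 (two-sided), so that it cannot pass for any of them. The 11 are the 10 named above and POLA1. The 3 are POLD1, POLD4 and POLDIP3.

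**Figure D1:**
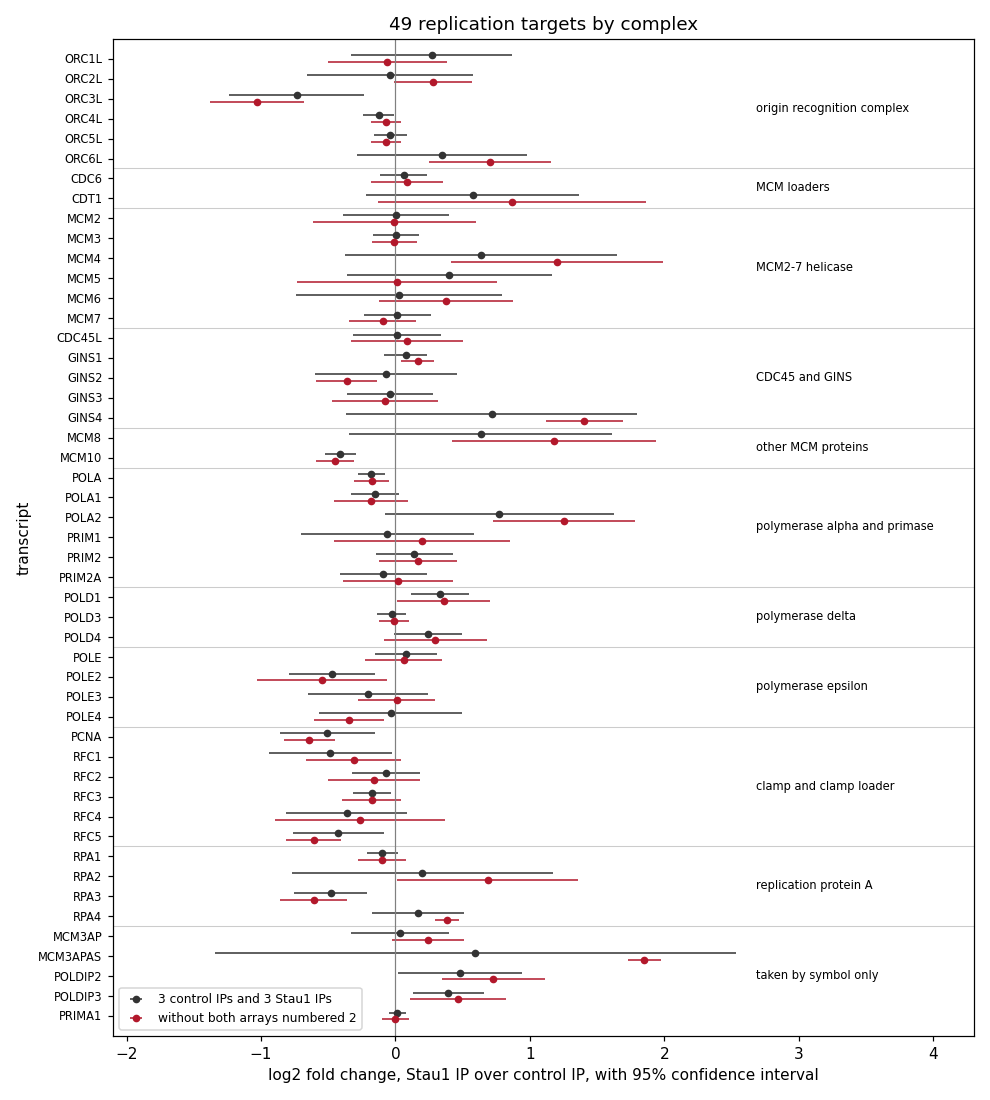
Log2 fold change of Stau1 IP over control IP for the 49 targets, grouped by complex, with 95% confidence intervals from limma. Black points use all 6 arrays and red points leave out both arrays numbered 2. The PCNA and RFC targets all lie below 0 in both fits, while single subunits of other complexes (GINS4, MCM4, POLA2) lie far above 0, with wide intervals when all 6 arrays are used.

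PCNA is the sliding ring that holds polymerases on DNA, and RFC1 to RFC5 form the pentamer that opens and closes it. All 6 log2 fold changes were negative, between -0.51 for PCNA and -0.07 for RFC2, with a median of -0.39, and all 6 stayed negative under each of the 5 other scalings tried, with all arrays and without both arrays numbered 2. At an unadjusted p under 0.05, 4 of the 6 were lower, against 5.16% of all targets and 11.7% of those detected on at least 3 arrays, and none was higher. Without both arrays numbered 2, 2 of the 6 were lower (PCNA and RFC5). In that fit 7.81% of all targets were lower, and 20.4% of those detected on at least 3 arrays. With all arrays, RFC2 and RFC4 (-0.36) were not among them.

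PCNA (chromosome 20) had normalized log2 signals of 11.64, 11.10 and 11.48 on control IP arrays 1, 2 and 3, and of 10.95, 10.86 and 10.90 on Stau1 IP arrays 1, 2 and 3. Its Stau1 IP arrays lay close together and all below the controls, of which the array labelled control IP 2 was the nearest to them. The means were 11.41 ± 0.28 (SD, n = 3) and 10.90 ± 0.04 (SD, n = 3), a log2 fold change of -0.51 (SE 0.14, limma adjusted p = 0.389). RFC5 (chromosome 12), a small subunit of the loader, had 11.98, 11.73 and 11.79 in the control IPs and 11.27, 11.68 and 11.28 in the Stau1 IPs. Stau1 IP 2 stood next to the controls here, and the log2 fold change was -0.42 (SE 0.13, limma adjusted p = 0.443). RFC5 counted as detected on 5 arrays although its signals lay between 2240 and 3668, and it missed the threshold on control IP 3. RFC1 (chromosome 4), the large subunit, had 8.48, 8.62 and 8.81 against 8.31, 7.78 and 8.36. Stau1 IP 2 was the lowest array, and the log2 fold change was -0.49 (SE 0.18, limma adjusted p = 0.544). RFC3 (chromosome 13) had 10.49, 10.34 and 10.29 against 10.21, 10.17 and 10.21, a small difference of -0.17 (SE 0.06, limma adjusted p = 0.451) with tightly grouped Stau1 IP arrays.

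Replication protein A is a trimer of RPA1, RPA2 and RPA3, and RPA4 is a relative of RPA2. RPA3 (chromosome 7), the smallest subunit, had 13.11, 12.95 and 12.92 in the control IPs and 12.47, 12.72 and 12.34 in the Stau1 IPs. The groups did not overlap, and Stau1 IP 2 was the Stau1 array nearest to the controls (log2 fold change -0.48, SE 0.11, limma adjusted p = 0.292). RPA1 (chromosome 17), the main DNA-binding subunit, hardly varied, with 12.07, 12.00 and 11.99 against 11.86, 11.90 and 12.00. The 95% confidence interval of its log2 fold change (-0.10) ran from -0.21 to 0.02. RPA2 (chromosome 1) had 12.31, 12.86 and 12.89 against 13.45, 12.09 and 13.13, so that Stau1 IP 1 and 3 were the highest arrays and Stau1 IP 2 the lowest (log2 fold change 0.20, SE 0.39). The subunits of the trimer thus stood in different orders on the same arrays. RPA4 reached the detection threshold on 2 Stau1 IP arrays alone, with means of 7.47 in the Stau1 IPs and 7.30 in the control IPs. Its log2 fold change was 0.17 (95% confidence interval -0.18 to 0.51, limma adjusted p = 0.837).

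MCM10 (chromosome 10), the fork factor that binds MCM2-7 and polymerase alpha, had the smallest p of all members. Its signals were 10.18, 10.05 and 10.11 in the control IPs and 9.65, 9.72 and 9.74 in the Stau1 IPs. The 6 arrays fell into 2 tight groups that followed the labels, both arrays numbered 2 included. The means were 10.11 ± 0.07 (SD, n = 3) and 9.70 ± 0.05 (SD, n = 3), a log2 fold change of -0.41 (SE 0.05, limma adjusted p = 0.117).

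In the origin recognition complex, 2 of 6 members were lower at an unadjusted p under 0.05 (ORC3L and ORC4L), and none was higher. The share lower was 5.16% of all targets and 11.7% of those detected on at least 3 arrays. Without both arrays numbered 2, 1 was lower (ORC3L) and 1 higher (ORC6L). In that fit 7.81% of all targets were lower and 9.24% higher. Of those detected on at least 3 arrays, 20.4% were lower and 23.3% higher. ORC3L (chromosome 6), a core subunit, had 9.99, 9.37 and 9.65 in the control IPs and 8.80, 9.23 and 8.78 in the Stau1 IPs. The groups did not overlap, but the array labelled control IP 2 was the lowest control and Stau1 IP 2 the highest Stau1 IP, so that these 2 differed by little. The log2 fold change was -0.73 (SE 0.20, limma adjusted p = 0.370), the lowest of the 49. ORC2L (chromosome 2) had 9.51, 9.69 and 9.59 against 9.96, 9.02 and 9.70, with Stau1 IP 2 below every other array, and a log2 fold change of -0.04 (SE 0.25). Its sign turned when either array numbered 2 was left out. ORC4L was detected on 1 control IP array and on no Stau1 IP array, at signals of 92 to 120. The means were 7.48 in the control IPs and 7.35 in the Stau1 IPs, with undetected arrays in both groups. The measured log2 fold change was -0.12 (SE 0.05, limma adjusted p = 0.529). ORC1L, ORC5L and ORC6L lay between -0.04 and 0.34. ORC5L counted as detected on 2 arrays, at signals of 514 to 669.

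The factors that load the helicase gave no call. CDC6 (chromosome 17) was dim and flat, with 7.61, 7.73 and 7.86 in the control IPs and 7.84, 7.74 and 7.81 in the Stau1 IPs. CDT1 (chromosome 16), the partner of CDC6 that geminin inhibits, had 10.86, 11.58 and 11.84 against 12.19, 11.57 and 12.25. Its Stau1 IP arrays 1 and 3 were the highest of all 6, and Stau1 IP 2 lay among the controls (log2 fold change 0.58, SE 0.32, limma adjusted p = 0.720).

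Within MCM2-7 the subunits differed. MCM2 (chromosome 3) had 11.70, 11.84 and 12.26 against 11.88, 11.86 and 12.07, a log2 fold change of 0.001 with a 95% confidence interval from -0.39 to 0.40. The groups overlapped completely, and the sign turned under median centring and when control IP 1, control IP 2, Stau1 IP 3 or both arrays numbered 2 were left out. MCM4 (chromosome 8) had 10.99, 12.01 and 11.75 against 12.50, 11.52 and 12.64. The high arrays were again Stau1 IP 1 and 3 with control IP 2 next, and Stau1 IP 2 lay among the controls (log2 fold change 0.64, SE 0.40, limma adjusted p = 0.766). MCM5 had 0.40 and MCM3, MCM6 and MCM7 between 0.003 and 0.03, so that all 6 subunits had a value above 0. This did not hold under median centring, where only MCM4 and MCM5 were above 0, nor without both arrays numbered 2, where MCM4, MCM5 and MCM6 were. MCM7 counted as detected on 3 arrays although its signals lay between 6292 and 8344, and MCM8, which acts with MCM9 in recombination, on 1 array at signals of 636 to 2488. The table does not show why such bright targets missed the threshold. For MCM8 the means were 10.91 in the Stau1 IPs and 10.28 in the control IPs, a log2 fold change of 0.63 (95% confidence interval -0.34 to 1.61, limma adjusted p = 0.760).

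Of CDC45 and the 4 GINS subunits, GINS4 (chromosome 8) stood apart from the others. Its signals were 8.97, 9.95 and 9.22 in the control IPs and 10.55, 9.28 and 10.45 in the Stau1 IPs, with the arrays numbered 2 on the side of the other group. The log2 fold change was 0.72 (SE 0.43, limma adjusted p = 0.751). CDC45L, GINS2 and GINS3 lay between -0.07 and 0.01, and GINS1 was detected on no array.

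In polymerase alpha and primase, POLA2 (chromosome 11), the regulatory B subunit, had 11.44, 12.15 and 11.96 in the control IPs and 12.98, 11.95 and 12.93 in the Stau1 IPs. Stau1 IP 1 and 3 were the highest and Stau1 IP 2 lay within the controls (log2 fold change 0.77, SE 0.34, limma adjusted p = 0.624), the highest value among the 49. The catalytic subunit did not share this order. POLA had 7.86, 7.76 and 7.80 against 7.69, 7.59 and 7.62 (log2 fold change -0.18, SE 0.04, limma adjusted p = 0.303), and POLA1, a separate target of the same gene, had 9.47, 9.50 and 9.66 against 9.29, 9.42 and 9.47 (-0.15, SE 0.07). Both targets of the gene were slightly lower on every Stau1 IP array. For POLA1 the groups all but touched, at 9.471 on Stau1 IP 3 and 9.473 on control IP 1. POLA was dim, with signals of 126 to 157. The primase subunits PRIM1 and PRIM2 had -0.06 and 0.14, and PRIM2A, the second target of PRIM2, had -0.09.

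Of the extending polymerases, POLD1 (chromosome 19), the catalytic subunit of polymerase delta, had 10.04, 10.25 and 10.38 against 10.56, 10.53 and 10.58. The Stau1 IP arrays, Stau1 IP 2 among them, all lay above the controls (log2 fold change 0.33, SE 0.09, limma adjusted p = 0.349). The small subunit POLD4 had 0.24 and the accessory subunit POLD3 -0.03. In polymerase epsilon, POLE2 (chromosome 14), the second subunit, had 10.55, 10.20 and 10.08 against 9.81, 9.88 and 9.73. Here all Stau1 IP arrays lay below the controls (log2 fold change -0.47, SE 0.13, limma adjusted p = 0.368). The catalytic subunit POLE had 0.08, and the histone-fold subunits POLE3 and POLE4 had -0.20 and -0.04.

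Among the targets taken by symbol alone, POLDIP3 (chromosome 22), whose protein binds polymerase delta and mRNA export factors, had 10.26, 10.44 and 10.60 in the control IPs and 10.91, 10.69 and 10.88 in the Stau1 IPs. The groups did not overlap (log2 fold change 0.39, SE 0.11, limma adjusted p = 0.359). POLDIP2 (chromosome 17) had 8.87, 9.30 and 9.23 against 9.83, 9.28 and 9.73, with Stau1 IP 2 among the controls (0.48, SE 0.18, limma adjusted p = 0.556). MCM3APAS (chromosome 21), a noncoding RNA antisense to MCM3AP, had the widest range of all members, with 7.82, 9.36 and 7.74 against 9.62, 7.45 and 9.65. The 3 high arrays were control IP 2 and Stau1 IP 1 and 3, and the 3 low ones control IP 1 and 3 and Stau1 IP 2. By the labels this gave a log2 fold change of 0.60 with a 95% confidence interval from -1.34 to 2.54. MCM3AP, the coding gene on the other strand, had 0.03, and PRIMA1 was detected on no array.

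**Figure D2:**
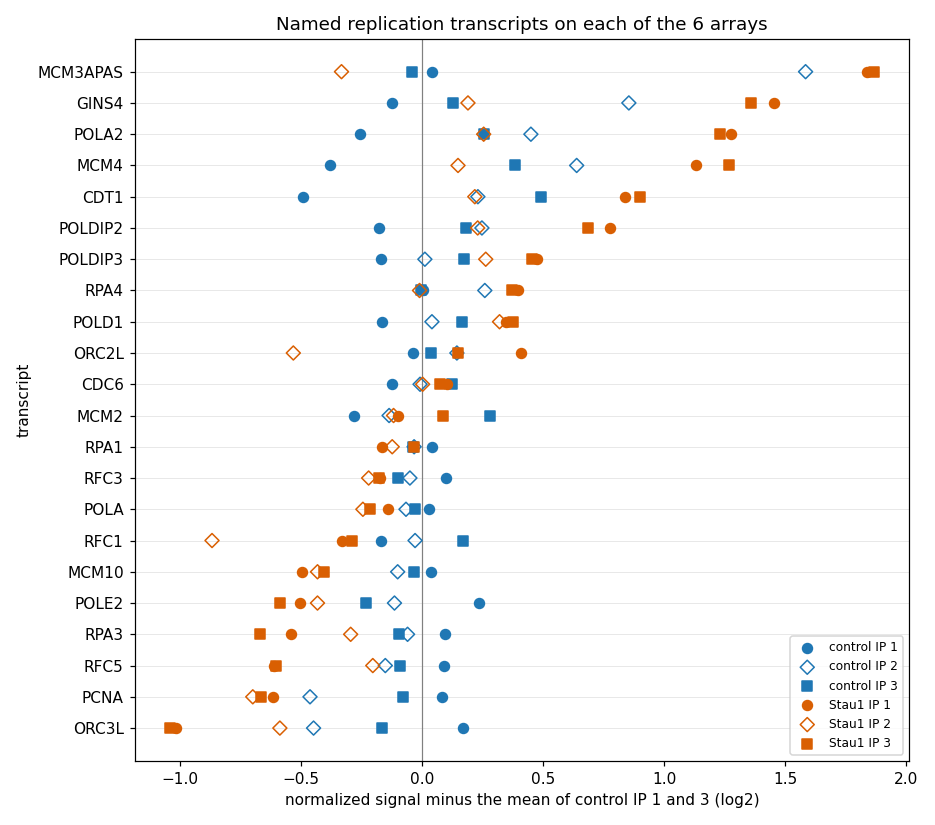
Normalized signal of the 22 named transcripts on each array, as the log2 difference from the mean of control IP 1 and 3, with control IPs in blue, Stau1 IPs in orange and both arrays numbered 2 as open diamonds. For transcripts at the top, such as MCM3APAS and GINS4, Stau1 IP 2 lies near control IP 1 and 3 or below them, and for MCM10, POLE2 and PCNA it lies with Stau1 IP 1 and 3.

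Without both arrays numbered 2, control IP 1 and 3 were compared with Stau1 IP 1 and 3. In this comparison 7 of the 49 replication targets passed an adjusted p under 0.05 by limma, against 5.25% of all targets. Of them 3 rose in the Stau1 IPs, against 3.23% of all targets, and 4 fell, against 2.02%. Among all targets detected on at least 3 arrays, 14.8% passed in either direction, 9.02% upwards and 5.75% downwards. At the fold of 2.5, 2 were enriched, against 0.605% of all targets, and 0 depleted, against 0.037%. Without the 5 targets taken by symbol alone, 6 of 44 passed the adjusted p by limma (2 rose and 4 fell), and 1 was enriched at the fold of 2.5. The median log2 fold change of the 49 was 0.009, beside -0.002 over all targets. At an unadjusted p under 0.05, 12 were higher and 9 lower (21 in all, against 17.1% of all targets), beside 9.24% and 7.81% of all targets and 23.3% and 20.4% of those detected on at least 3 arrays.

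The transcripts that rose were MCM3APAS, GINS4 and RPA4. MCM3APAS had a log2 fold change of 1.85 (SE 0.04, limma adjusted p = 0.00675), a fold of 3.61. GINS4 had 1.41 (SE 0.10, limma adjusted p = 0.0169), a fold of 2.65. These were the 2 targets enriched at the fold of 2.5. RPA4 was at least 1.23-fold higher (means 7.60 and 7.22, limma adjusted p = 0.0203), since both control arrays left it undetected. POLA2 with 1.25 (limma adjusted p = 0.0522), MCM4 with 1.20 (adjusted p = 0.131), CDT1 with 0.87 (adjusted p = 0.366) and ORC6L with 0.71 (adjusted p = 0.127) did not pass. MCM8 had 1.18 (limma adjusted p = 0.127) and did not pass either.

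The transcripts that fell were PCNA, MCM10, RFC5 and ORC3L. PCNA had a log2 fold change of -0.64 (SE 0.07, limma adjusted p = 0.0274) and MCM10 one of -0.45 (SE 0.05, adjusted p = 0.0315). RFC5 had -0.61 (SE 0.07, adjusted p = 0.0343) and ORC3L -1.03 (SE 0.12, adjusted p = 0.0346). RPA3 with -0.61 was just outside (limma adjusted p = 0.0504), and POLE2 with -0.55 did not pass (adjusted p = 0.235). These calls rest on 4 arrays, of which Stau1 IP 1 and 3 were the most alike of any pair. All 7 were lost by the methods' t-test, with the replicate number as a block (0 passed in either case) and without Stau1 IP 1 or Stau1 IP 3, while neqc, another background correction and normalization, called only MCM3APAS, at a log2 fold change of 0.53 in place of 1.85. That setting took from the detection p a background SD of 460 to 608 signal units, against a median absolute deviation of 9.97 to 10.9 among the undetected targets, of which the brightest had a signal between 20917 and 24568 on each array. With the latter as the background SD, a choice made after the data had been seen, neqc called all 7 and POLA2, and MCM3APAS had 2.84. A prior variance that follows the signal (eBayes with trend) lost MCM10, PCNA and RFC5.

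The arrays left out sat differently for the 2 directions. Of the 9 targets whose mean on Stau1 IP 1 and 3 exceeded that of control IP 1 and 3 by more than 0.5 on the log2 scale, Stau1 IP 2 was nearer to the control mean for all 9. Control IP 2 was nearer to the Stau1 IP mean for 5 of them (GINS4, MCM3APAS, MCM4, MCM8 and ORC6L). Of the 5 targets lower by more than 0.5, Stau1 IP 2 was nearer to Stau1 IP 1 and 3 for ORC3L, PCNA and POLE2, and nearer to the controls for RFC5 and RPA3. Control IP 2 was nearer to the other controls for all of these except PCNA. These are positions of single arrays and were not tested.

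**Figure D3:**
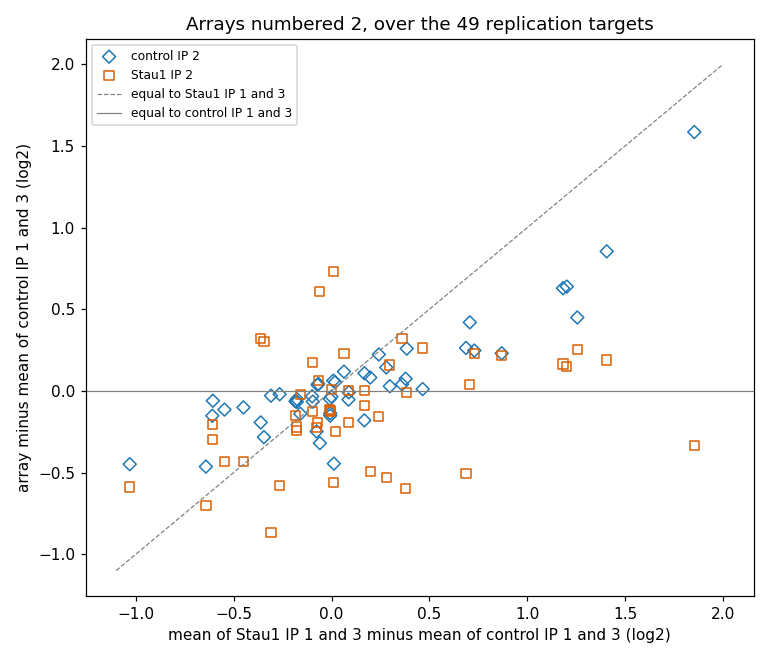
Arrays labelled control IP 2 (blue diamonds) and Stau1 IP 2 (orange squares) for the 49 targets, on the vertical axis as the log2 difference from the mean of control IP 1 and 3, against the difference of Stau1 IP 1 and 3 from the same mean on the horizontal axis. Points on the horizontal line equal control IP 1 and 3 and points on the dashed line equal Stau1 IP 1 and 3. At the right, where Stau1 IP 1 and 3 are high, the blue points approach the dashed line and the orange points stay near the horizontal line or below it.

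Genes of DNA replication outside the rule were read from a list of licensing regulators, fork protection and Okazaki fragment factors, histone chaperones and enzymes of nucleotide supply, of which 43 targets were found. By the labels, 4 were higher and 8 lower at an unadjusted p under 0.05, and 0 passed the adjusted p by limma. At that unadjusted p, 3.54% and 5.16% of all targets were higher and lower, and 7.98% and 11.7% of those detected on at least 3 arrays. Their median log2 fold change was -0.09. TK1, thymidine kinase of the salvage pathway, had 11.21, 11.78 and 11.49 in the control IPs and 12.56, 12.00 and 12.49 in the Stau1 IPs, so that all Stau1 IP arrays lay above the controls (log2 fold change 0.86, SE 0.21, limma adjusted p = 0.321). GMNN, which encodes the CDT1 inhibitor geminin, lay in the other direction, with 12.55, 11.95 and 12.12 against 11.53, 11.92 and 11.53 (-0.54, SE 0.19, adjusted p = 0.493). CDC7, the kinase that activates MCM2-7, had -0.52 (SE 0.11, adjusted p = 0.266). Without both arrays numbered 2, 3 of the 43 rose and 2 fell at the adjusted p. Of all targets 3.23% and 2.02% did so, and 9.02% and 5.75% of those detected on at least 3 arrays. Among those that rose were TK1 (1.17) and CHTF18 (0.47), of an alternative clamp loader. RNASEH2B (-0.87) and DSCC1 (-0.43), of the same alternative loader as CHTF18, fell.

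A list of other enzymes named as DNA polymerases, with partners, held 15 targets. Most act in repair or translesion synthesis, while POLG and POLG2 copy mitochondrial DNA, DNTT adds nucleotides without a template and POLS is known as a poly(A) polymerase. By the labels, 2 were higher and 3 lower at an unadjusted p under 0.05, and 0 passed the adjusted p by limma. At that unadjusted p, 3.54% and 5.16% of all targets were higher and lower, and 7.98% and 11.7% of those detected on at least 3 arrays. POLB, the polymerase of base excision repair, had 12.02, 11.62 and 11.84 in the control IPs and 10.93, 11.46 and 10.85 in the Stau1 IPs (log2 fold change -0.74, SE 0.19, limma adjusted p = 0.348). Without both arrays numbered 2, 3 of the 15 rose (POLG, POLH and POLS) and 2 fell (POLB and MAD2L2), against 3.23% and 2.02% of all targets and 9.02% and 5.75% of those detected on at least 3 arrays.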

How the data were processed

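The authors deposited mean bead signal intensities of Illumina arrays as BeadStudio wrote them, not normalized per the file headers, with the probes of a target combined. The values showed no background subtraction. Deposited beside them were the standard error between beads (an intensity), the number of beads (other) and a detection p-value. A p under 0.05 counted as detected. The chain named in the study's methods was rebuilt with limma 3.58.1, and with mgcv 1.9.3 for the spline, under R 4.3.3. Negative controls were stood in for by the 200 targets whose detection p lay closest to 0.5, and their median was subtracted. A variance stabilizing transformation was fitted on 500 bins to the SD between beads. Its constant term reached the lower limit of 1, so that values are close to log2 of the signal plus a constant of 116 to 160, and changes of dim targets are understated. A monotone spline with 10 knots mapped each array on control IP 2. Groups came from the labels. lmFit and eBayes were run on all 37879 targets, with Benjamini-Hochberg adjustment over all of them. No filter was applied. Values per array are normalized log2 signals and are not compared between genes. With all 6 arrays, RPA4 and ORC4L are given by their measured values, since the group that held the detected arrays also held undetected ones. Without both arrays numbered 2, RPA4 is given as a bound against the lowest detected signal. MCM8, undetected but far above that signal, is given by its measured values. Steps were tested on simulated data. The number of arrays limits the precision. Members and gene lists were chosen with earlier results of these data known. Named members are those with the 10 smallest p under 0.05 of either fit, the 3 highest and 3 lowest fold changes of either fit among targets detected on all 6 arrays, and CDC6, CDT1, PCNA, MCM2, ORC2L and RPA1. Other members and the partners given with values were chosen after these were seen. Alternatives were neqc (also with a background SD from the undetected targets), quantile normalization, median centring, no background correction, a detection filter, eBayes with trend, the methods' t-test, a fold of 2, a block for the replicate number and leaving out arrays. Values of 2 genes, 1 marker and 1 partner, are not reported here.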

Additional observations from a re-analysis of the deposited data

How the results depend on the processing

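By the labels, the counts of 0 enriched, 0 depleted and 0 past the adjusted p held under every alternative except leaving out both arrays numbered 2, which gave 2 enriched and 7 past the adjusted p. The 3 transcripts higher at an unadjusted p became 5 under quantile normalization, without background correction and under neqc with the background SD of the undetected targets (added after seeing the data), 0 under median centring and 12 without both arrays numbered 2. Under neqc, by the methods' t-test and with an eBayes trend, 2 were higher. The 10 lower became 5 with an eBayes trend, and 7 under the detection filter, under median centring and by the methods' t-test. They became 8 under neqc, and 9 without background correction and under neqc with the background SD of the undetected targets. Without both arrays numbered 2, 9 were lower. Leaving out single arrays gave 2 to 11 higher, the upper end without the array labelled Stau1 IP 2, and 7 to 9 lower. With the replicate number as a block, 2 were higher, 9 lower and 0 past the adjusted p. The labels do not say that a number marks a shared culture, so the numbers were not taken as pairs. The deviations of control and Stau1 IPs of one number correlated at -0.45, -0.77 and -0.39. Since the array labelled Stau1 IP 2 stands nearer to the controls, these values do not settle whether the numbers pair.

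Without both arrays numbered 2, all alternatives were added after the data had been seen. The 7 past the adjusted p became 1 under neqc (8, and 1 depleted, with the background SD of the undetected targets), 11 under quantile normalization, median centring and the detection filter, 13 without background correction, and 0 with the replicate block or by the methods' t-test, which gave 4 higher and 5 lower. A fold of 2 gave 5 enriched and 1 depleted. Leaving out single arrays of the 4 gave 0 to 25 past the adjusted p (0 without Stau1 IP 1 or 3, 21 without control IP 1 and 25 without control IP 3), 1 to 6 enriched, 7 to 21 higher and 5 to 15 lower. With 1 array left in a group, that array is assumed to vary like the others. The median log2 fold change of the 49 moved by less than the spread between arrays, and no call changed direction. The signs of CDC6, MCM2 and ORC2L, which were never called, turned under some alternatives. The causes were not tested.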
